A study of Arabidopsis thaliana with 12 samples.

Results

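The transcriptional response of wild-type Arabidopsis to iSB09, a synthetic sulfonamide agonist of abscisic acid (ABA) receptors, was measured by RNA-seq in whole seedlings of the Col-0 accession. Wild-type (WT) seedlings carried no transgene, so that the native receptors were the only ABA receptors present. The 3 samples treated with 5 μM iSB09 for 3 hours were compared with 3 mock samples that received 0.1% DMSO, the solvent. These are 6 of the 12 samples of the series. The other 6, used here only for comparison, are CsPYL1-5m seedlings with 5 μM iSB09 and with mock, a transgenic line that expresses an engineered sweet orange receptor from the 35S promoter. The study's methods give 10 days as the age of all seedlings and the sample labels 12 days. The methods describe the replicates as independent experiments. Of the 37336 genes in the expression table, 19612 had at least 1 TPM (a level corrected for transcript length and library size) in all 3 replicates of either WT group, and these were tested.

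ABA is the hormone through which plants respond to drought, salt and cold and through which seeds stay dormant. It binds soluble receptors of the PYR/PYL/RCAR family. The bound receptor inhibits clade A protein phosphatases 2C (PP2Cs), which otherwise keep SnRK2 protein kinases inactive. Freed SnRK2s phosphorylate ion channels of guard cells and bZIP transcription factors of the ABF/AREB group, which bind the ABA response element (ABRE) in promoters of protective genes. Receptors, phosphatases and enzymes of ABA breakdown are themselves targets of the pathway, so that it feeds back on its own components. Agonists such as iSB09 activate only some members of the receptor family.

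The 6 WT libraries held 21502003 to 21754261 reads on genes, and 3 reads on a transcript of 1000 bases corresponded to 0.224 to 0.235 TPM. The samples had the genes of green seedlings. The 8 nuclear photosynthesis genes summed to 34979 to 49860.1 TPM with iSB09 and to 46384 to 50288.5 TPM with mock. Of the root cell markers 9 of 10 passed the expression filter, and of the guard cell markers 4 of 4. The 8 seed storage and embryo markers summed to 0.269 to 1.16 TPM with iSB09 and 0.697 to 1.04 TPM with mock. Replicate 2 of the iSB09 group stood apart from the other treated samples. Its values differed from the mean of the other 2 treated replicates with an SD of 0.451 over genes on the log2 scale, against 0.343 for replicate 1 and 0.234 for replicate 3. It was kept in all counts. Where the call of a named gene changed without it, this is stated, and for some other genes the size without it is given.

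iSB09 raised 448 genes and lowered 302 in WT, which is 2.28% and 1.54% of the genes tested (limma on log2(TPM + 0.5)). A gene was called where its adjusted p was under 0.05 and it changed by more than 1 on the log2 scale, that is by more than 2-fold. In each of these genes the 3 treated samples and the 3 mock samples did not overlap. The same statement for a single called gene below therefore adds no further support. Most changes were moderate. The median log2 fold change was 1.37 for the genes raised and -1.33 for the genes lowered, 77 genes rose and 48 fell by more than 2 on this scale, and 21 rose and 10 fell by more than 3. The median over all genes tested was 0.01. Of the raised genes, 78 passed the expression filter only through the iSB09 samples, and of the lowered genes 89 only through the mock samples. In all, 330 tested genes passed only through the iSB09 samples and 501 only through the mock samples. The filter favours a difference in such genes, so list counts are also given without them. Leaving out iSB09 replicate 2 gave 413 genes raised and 279 lowered, of which 353 and 232 were among those called with all samples. The counts were 289 and 198 without mock replicate 2 and 254 and 166 without mock replicate 3. With replicate 3 of both groups left out, 8 and 4 genes passed, while 404 of the 448 and 274 of the 302 still changed by more than 1 in the same direction.

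**Figure D1:**
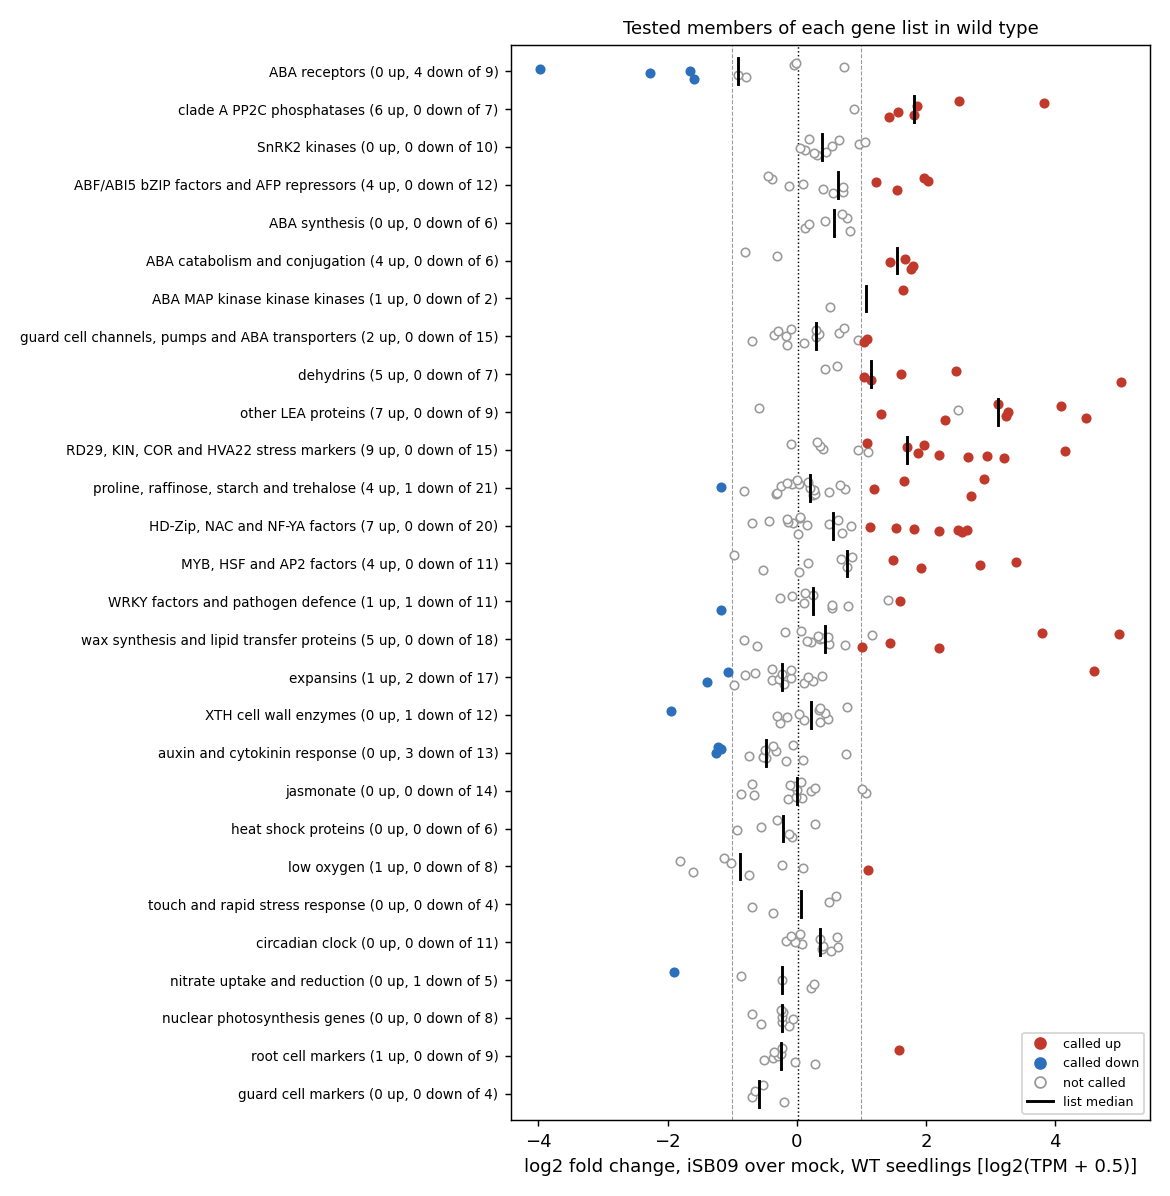
Log2 fold change of iSB09 over mock in WT for every tested member of 28 gene lists; each point is a gene, filled when called, black bars are list medians, dashed lines mark -1 and 1, and the dotted line is the median of all tested genes, 0.01. Points called up crowd the PP2C, LEA and RD29/KIN/COR/HVA22 rows, points called down the receptor row, and the SnRK2, ABA synthesis, jasmonate, heat shock, clock and photosynthesis rows hold no called gene.

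Of 14 ABA receptor genes of the PYR/PYL family 9 were tested, 4 fell and none rose, with a list median of -0.91. PYL6 had 2.56, 1.41 and 1.76 TPM with iSB09, against 33, 42.3 and 35.2 TPM with mock (log2 fold change -3.97 ± 0.19, adjusted p = 0.00016, where ± is the SE). Its treated mean was 5.19% of the mock mean, and its gene lies at chromosome 2, 16844588 to 16846194 of the TAIR10.1 assembly, in 1 exon. PYL4, the most abundant receptor transcript of mock seedlings, had 79.6, 71.9 and 72.3 TPM with iSB09, against 351, 374 and 359.6 TPM with mock (log2 fold change -2.27 ± 0.08, adjusted p = 7.4e-05). The 3 treated samples of PYL4 lay within 8 TPM of each other and far below the mock samples. PYL5 had 15.7, 22.3 and 16 TPM with iSB09, against 55.2, 64.2 and 51.9 TPM with mock (log2 fold change -1.65 ± 0.15, adjusted p = 0.0014). PYR1, the receptor first identified through the agonist pyrabactin, had 33.3, 29.7 and 34.3 TPM with iSB09, against 88.9, 109.9 and 97.6 TPM with mock (log2 fold change -1.59 ± 0.10, adjusted p = 0.00043). Both were lower in every treated sample than in any mock sample. PYL1 had 21.5, 16 and 20.3 TPM with iSB09, against 32.2, 34.8 and 32.5 TPM with mock (log2 fold change -0.78). PYL2 had 4.23, 2.01 and 4.21 TPM with iSB09, against 5.65, 7.09 and 7.39 TPM with mock (log2 fold change -0.91). Neither passed with limma on TPM, while limma voom on recovered reads called PYL2 down (log2 fold change -1.04). PYL8 (listed as RCAR3) and PYL9 (listed as RCAR1), receptors that do not need to dissociate from a dimer to bind ABA, had log2 fold changes of -0.05 and -0.01, and PYL7 had 0.73. Summed over the family, receptor transcripts came to 235.0, 242 and 234 TPM with iSB09, against 657, 720.5 and 669.6 TPM with mock. In whole seedlings, fewer cells of a type and less RNA per cell cannot be told apart.

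Of the 9 clade A PP2C genes, whose products the receptors inhibit, 7 were tested and 6 rose. HAI1 and HAI2 passed the filter only through the iSB09 samples, and of the 5 others 4 rose, with a median of 1.57. HAI1 had 13, 12.6 and 15 TPM with iSB09, against 0.713, 0.383 and 0.399 TPM with mock (log2 fold change 3.82 ± 0.17, adjusted p = 0.00014). It is one of the highly ABA-induced PP2Cs, and its treated mean was 27.1 times the mock mean. HAI2 had 4.11, 3.74 and 4.45 TPM with iSB09, against 0.324, 0.235 and 0.368 TPM with mock (log2 fold change 2.51 ± 0.17, adjusted p = 0.00048). PP2CA, which acts on SnRK2s and on guard cell anion channels, had 75.7, 57.1 and 66.7 TPM with iSB09, against 17.602, 15.3 and 20.7 TPM with mock (log2 fold change 1.87). ABI2 had 18, 17.2 and 16.9 TPM with iSB09, against 5.26, 3.93 and 4.65 TPM with mock (log2 fold change 1.81). HAB1 had 30.5, 38 and 31.3 TPM with iSB09, against 11.2, 9.89 and 11.4 TPM with mock (log2 fold change 1.57). ABI1 had 93.2, 119.9 and 97.4 TPM with iSB09, against 37.3, 35.2 and 40.9 TPM with mock (log2 fold change 1.43), where the 2 groups were again fully apart. ABI1 overlaps the gene AT4G26070 and the counting did not use strand, so that their reads cannot be told apart. HAB2 had 33.6, 32.7 and 34.6 TPM with iSB09, against 21, 16.2 and 17.2 TPM with mock, a log2 fold change of 0.88 below the threshold of 1 (adjusted p = 0.0046). Together the PP2C transcripts summed to 269, 282 and 267 TPM with iSB09, against 93.7, 81.3 and 95.9 TPM with mock, so that on this length-corrected scale the PP2C sum was above the receptor sum in every treated sample and below it in every mock sample. The median change of the PP2C genes was 1.86, 1.77 and 1.77 in iSB09 replicates 1, 2 and 3.

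The kinases themselves did not pass the thresholds. None of 10 tested SnRK2 genes was called by limma or by limma voom on recovered reads, and their median was 0.38, with 7 at an unadjusted p under 0.05. The largest log2 fold change was 1.06, and 1 gene was called up without iSB09 replicate 1 and 1 without iSB09 replicate 2. SnRK2.2, the most abundant of the 10 in these samples and a kinase of the ABA-activated subclass, had 151, 167 and 166 TPM with iSB09, against 158, 121 and 126 TPM with mock (log2 fold change 0.27 ± 0.12, adjusted p = 0.16). Among the bZIP factors and their AFP repressors 4 of 12 tested genes rose. AFP1, which represses ABI5, had 22.6, 23.5 and 23.1 TPM with iSB09, against 5.86, 4.82 and 5.17 TPM with mock (log2 fold change 2.03). AFP3 had 19.3, 25.7 and 19.6 TPM with iSB09, against 3.79, 6.68 and 5.17 TPM with mock (log2 fold change 1.97), and the groups were apart in both. ABF3, an ABRE-binding factor of vegetative tissue, had 62.7, 52.7 and 60.9 TPM with iSB09, against 20.9, 16.8 and 21.4 TPM with mock (log2 fold change 1.56, adjusted p = 0.00077). GBF3, a G-box binding factor, had 14.7, 16.3 and 15.8 TPM with iSB09, against 5.41, 7.11 and 6.77 TPM with mock (log2 fold change 1.22). ABF3 overlaps AT4G34020. Without ABI5, which passed the filter only through the iSB09 samples and was not called, the list median was 0.56. MAPKKK18, a kinase kinase kinase of ABA signalling that passed the filter only through the iSB09 samples, had 5.33, 3.97 and 5.09 TPM with iSB09, against 1.21, 1.45 and 0.929 TPM with mock (log2 fold change 1.65 ± 0.19, adjusted p = 0.003).

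Of 7 genes for ABA breakdown and conjugation 6 were tested and 4 rose, or 3 with voom. The 4 are the CYP707A genes, which encode the ABA 8'-hydroxylases that inactivate the hormone. The other 2, named after their values were seen, were UGT71C5 (log2 fold change -0.80, adjusted p = 0.0051, below the threshold in size), which conjugates ABA to glucose, and BGLU18 (log2 fold change -0.30), which releases ABA from that conjugate. Summed over the list, levels overlapped between the groups, at 237, 186 and 243 TPM with iSB09, against 148, 232 and 168 TPM with mock. CYP707A2 had 53.1, 49.8 and 55.4 TPM with iSB09, against 16.3, 11.6 and 17.2 TPM with mock (log2 fold change 1.80 ± 0.15, adjusted p = 0.00092). CYP707A1 had 36.9, 22.6 and 38.2 TPM with iSB09, against 8.38, 9.37 and 9.29 TPM with mock (log2 fold change 1.76), and in both the lowest treated sample was above the highest mock sample. CYP707A4 had 5.72, 18.5 and 7.96 TPM with iSB09, against 2.42, 2.38 and 3.21 TPM with mock (log2 fold change 1.67), highest in treated replicate 2, and CYP707A3 had 16, 8.83 and 20.9 TPM with iSB09, against 5.49, 4.5 and 5.03 TPM with mock (log2 fold change 1.44), lowest in that replicate. The calls of the last 2 were each lost when a library was left out. For CYP707A4 this was so without iSB09 replicate 3 or mock replicate 1 or 2 or 3, each left out alone (log2 fold change 1.61 to 1.79, adjusted p = 0.071 to 0.1), and also with no expression filter and with voom. For CYP707A3 it was so without iSB09 replicate 3 or mock replicate 2 or 3, each left out alone (log2 fold change 1.18 to 1.44, adjusted p = 0.052 to 0.079). Of 10 genes of ABA synthesis 6 were tested and none was called by limma or voom, with 4 at an unadjusted p under 0.05 and a median of 0.57. ABA1, the zeaxanthin epoxidase and the most abundant of them, had 118, 100.5 and 100.4 TPM with iSB09, against 71.9, 49.3 and 59.5 TPM with mock (log2 fold change 0.82 ± 0.14, adjusted p = 0.012), a change below the threshold in size. NCED4, a carotenoid cleavage enzyme outside the list and named after its value was seen, had 40.1, 36.3 and 37.9 TPM with iSB09, against 19.4, 11.2 and 7.68 TPM with mock (log2 fold change 1.64), and its call was lost without mock replicate 2 (log2 fold change 1.59, adjusted p = 0.06).

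Of 15 tested genes for guard cell channels, pumps and ABA transporters, 2 passed, both close to the threshold. ALMT12, the malate-permeable anion channel of guard cells, had 19.8, 16.5 and 22.9 TPM with iSB09, against 9.49, 9.38 and 8.15 TPM with mock (log2 fold change 1.08). It lost its call without iSB09 replicate 3 (log2 fold change 0.97, adjusted p = 0.023). KAT1, an inward potassium channel, had 24, 27.4 and 29.9 TPM with iSB09, against 14.6, 9.91 and 14.49 TPM with mock (log2 fold change 1.05). This call was lost without iSB09 replicate 3 (log2 fold change 0.97, adjusted p = 0.043) and without mock replicate 2 (log2 fold change 0.87, adjusted p = 0.023), and also with quantile normalization and in the RPKM table. The list median was 0.29, and none of the 4 guard cell markers was called by limma or voom, with 3 at an unadjusted p under 0.05. Their median was -0.59, with summed levels of 72.2 to 110.3 TPM with iSB09 and 134 to 145 TPM with mock, and the part of cell composition in these values was not tested.

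**Figure D2:**
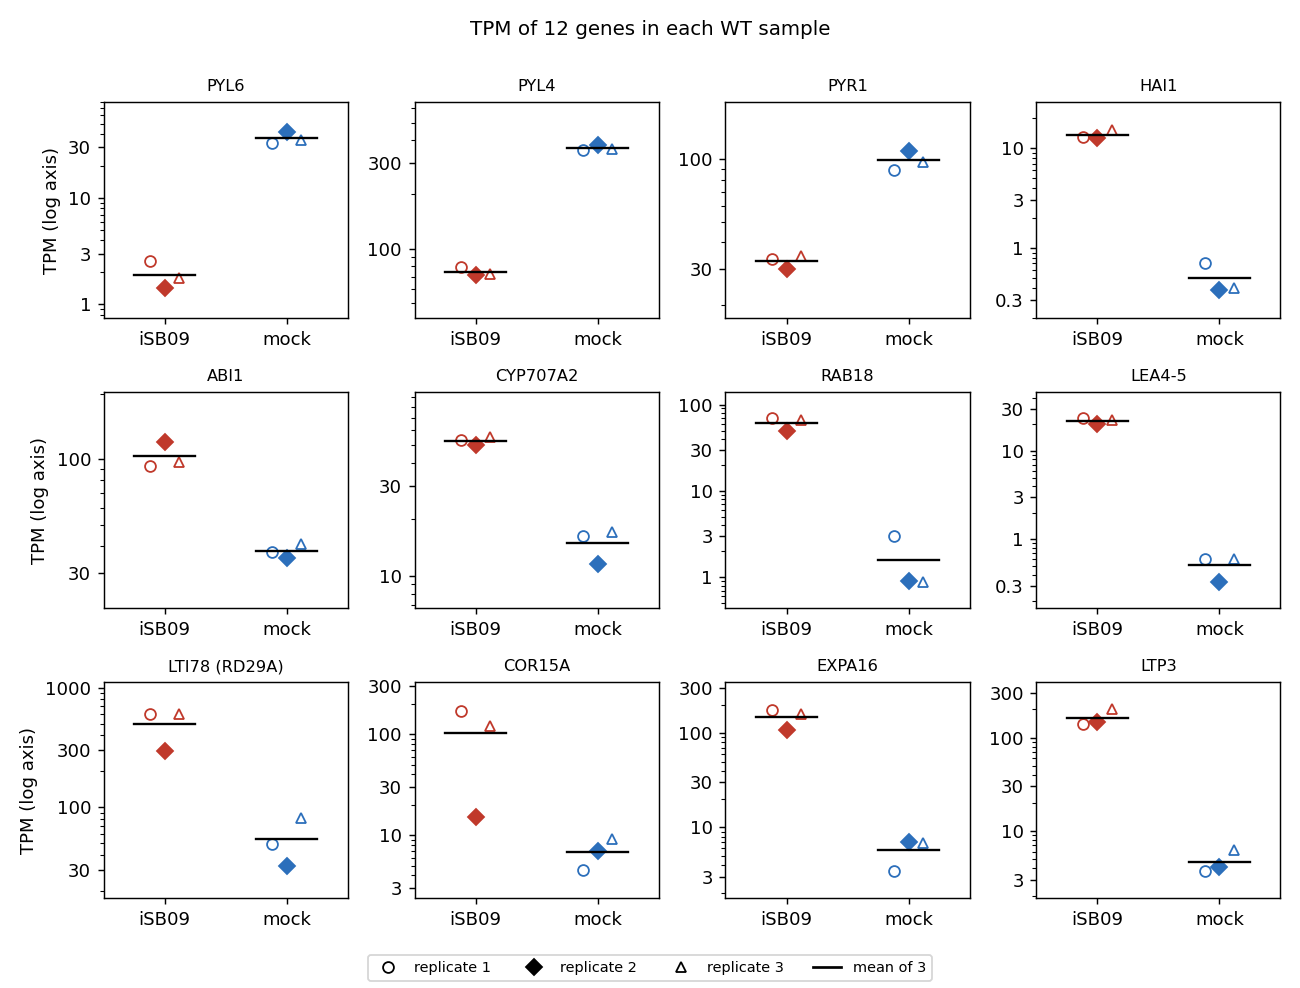
TPM on a log axis of 12 genes in each WT sample, with iSB09 left and mock right in each panel; symbols mark the replicate, filled diamonds are replicate 2, and black bars are means of 3. The 3 receptors lie lower with iSB09 and the other 9 genes higher, no panel has overlapping groups, and COR15A is the panel in which treated replicate 2, at 15.1 TPM, lies nearest to the mock samples.

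Protective proteins held several of the largest increases. Dehydrins are hydrophilic proteins that accumulate in drying cells, and 5 of 7 tested rose. RAB18 passed the filter only through the iSB09 samples, and of the 6 others 4 rose, with a median of 1.09. RAB18 (chromosome 5, 26518277 to 26519447, minus strand) had 69.8, 49.2 and 65.9 TPM with iSB09, against 2.96, 0.908 and 0.874 TPM with mock (log2 fold change 5.03 ± 0.35, adjusted p = 0.0006), the largest increase of any gene named by rule. Mock replicate 1 was the highest mock sample, and still far below the treated ones. RAB18 overlaps AT5G66410, whose reads cannot be separated from its own without strand. LTI30 had 199.9, 159 and 203 TPM with iSB09, against 31.3, 30.1 and 39.6 TPM with mock (log2 fold change 2.46). COR47 had 577, 491 and 625 TPM with iSB09, against 209.5, 137 and 218 TPM with mock (log2 fold change 1.61). ERD10 had 594, 347 and 588 TPM with iSB09, against 210.4, 203 and 262 TPM with mock (log2 fold change 1.14), lowest in treated replicate 2, and lost its call without iSB09 replicate 3 or mock replicate 2 or 3, each left out alone (log2 fold change 1.02 to 1.26, adjusted p = 0.053 to 0.071). ERD14 had 415, 452 and 446 TPM with iSB09, against 231, 202 and 207 TPM with mock (log2 fold change 1.04). Its call was lost without mock replicate 2 (log2 fold change 0.998, adjusted p = 0.01). AT1G54410, the most abundant dehydrin transcript at 1591 ± 316 TPM with iSB09 and 1166 ± 70.7 TPM with mock (SD, n = 3 each), had a log2 fold change of 0.43 (adjusted p = 0.1), and AT4G38410 had 0.63.

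Of 18 other late embryogenesis abundant (LEA) genes, which are best known from drying seeds, 9 were tested and 7 rose. However, 5 of the 7 passed the filter only through the iSB09 samples, among them the 4 given next, and of the 4 genes expressed in all mock samples 2 rose. LEA4-5 had 23.3, 20.1 and 22.6 TPM with iSB09, against 0.599, 0.331 and 0.604 TPM with mock (log2 fold change 4.48 ± 0.16, adjusted p = 7.4e-05), and its treated mean was 43 times the mock mean. AT3G02480 had 29.2, 18.7 and 22.7 TPM with iSB09, against 1.97, 0.407 and 0.708 TPM with mock (log2 fold change 4.08). LEA7 had 16.8, 8.64 and 13.9 TPM with iSB09, against 0.896, 0.866 and 0.903 TPM with mock (log2 fold change 3.24). AT3G17520 had 4.39, 3.2 and 4.5 TPM with iSB09, against 0, 0.0586 and 0 TPM with mock (log2 fold change 3.11). As in every raised gene, every treated sample of these 4 genes was above every mock sample, and AT3G17520 was listed at 0 in 2 of the mock samples. COR15A, a chloroplast stroma protein that protects membranes in the cold, varied most among the treated samples. It had 171, 15.1 and 121 TPM with iSB09, against 4.55, 6.97 and 9.08 TPM with mock (log2 fold change 3.27 ± 0.82, adjusted p = 0.038), and treated replicate 2 was far below the other treated samples while still above every mock sample. Its call was lost without iSB09 replicate 1 or 3 or mock replicate 1 or 2 or 3, each left out alone (log2 fold change 2.61 to 3.48, adjusted p = 0.07 to 0.12), and also with no filter, with no variance trend and with voom. Without iSB09 replicate 2 alone the COR15A call was kept (log2 fold change 4.34, adjusted p = 8.6e-05). Its neighbour COR15B, named after its values were seen, had 63.2, 6.88 and 53 TPM with iSB09, against 4.98, 5.05 and 4.18 TPM with mock (log2 fold change 2.49 ± 0.74, adjusted p = 0.062), and it was called without iSB09 replicate 2 (log2 fold change 3.48, adjusted p = 2.4e-05) and with replicate number as a block (adjusted p = 0.048).

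Among 15 classical ABA and cold markers of the RD29, KIN, COR and HVA22 families, all of which were tested, 9 rose. RD29B and HVA22B passed the filter only through the iSB09 samples, and of the 13 others 7 rose, with a median of 1.095. RD20, a caleosin of lipid droplets, had 62.9, 94.1 and 117 TPM with iSB09, against 4.29, 6.86 and 3.06 TPM with mock (log2 fold change 4.15 ± 0.30, adjusted p = 0.00063). RD29A (listed as LTI78) had 600.4, 294 and 600.2 TPM with iSB09, against 49.7, 32.2 and 81.1 TPM with mock (log2 fold change 3.21). RD29B (listed as LTI65) had 5.26, 3.75 and 4.84 TPM with iSB09, against 0.463, 0.0688 and 0.466 TPM with mock (log2 fold change 2.65). RD29A, KIN1 and KIN2 were each lowest in treated replicate 2 among the treated samples, yet above all mock samples. KIN1 had 130.2, 44.9 and 122 TPM with iSB09, against 5.31, 17.1 and 15.1 TPM with mock (log2 fold change 2.94). It lost its call without iSB09 replicate 3 (log2 fold change 2.72, adjusted p = 0.053) and without mock replicate 3 (log2 fold change 3.15, adjusted p = 0.053). KIN2 had 857, 319 and 672 TPM with iSB09, against 99.2, 139.8 and 136 TPM with mock (log2 fold change 2.198). KIN1 and KIN2 are near-identical neighbours, so that the discarded shared reads could have changed either value. COR413-PM1 had 1504, 1018 and 1384 TPM with iSB09, against 413, 294 and 352 TPM with mock (log2 fold change 1.88). The histone variant HIS1-3 (log2 fold change 1.70) and HVA22B (log2 fold change 1.97) rose as well. HVA22D had 126, 93.9 and 129 TPM with iSB09, against 52.2, 52.9 and 56.3 TPM with mock (log2 fold change 1.09), while HVA22A (log2 fold change 0.36), HVA22C (log2 fold change -0.08), HVA22E (log2 fold change 0.31) and ERD7 (log2 fold change 0.40) stayed below the thresholds. RD22 had 384, 447 and 371 TPM with iSB09, against 178, 242 and 202 TPM with mock (log2 fold change 0.95) and was called without iSB09 replicate 3 (log2 fold change 1.01, adjusted p = 0.025) and without mock replicate 2 (log2 fold change 1.07, adjusted p = 0.014). COR413IM1 had 72.7, 6.6 and 54.6 TPM with iSB09, against 24.9, 10.6 and 9.92 TPM with mock (log2 fold change 1.095 ± 0.84, adjusted p = 0.42), with treated replicate 2 below every mock sample, and it was called up without iSB09 replicate 2 (log2 fold change 2.15, adjusted p = 0.0064). Summed over the 15 genes, levels were 3983, 2504 and 3694 TPM with iSB09, against 1005, 964 and 1032 TPM with mock.

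The promoters of 4 genes show the sequence context of strongly raised genes, chosen among genes whose 250 bases before the annotated start overlap no other gene. Sequences are from RefSeq TAIR10.1, written 5′ to 3′ on the strand of the gene, with capitals marking each match to the ABRE core ACGTG or to the dehydration responsive element (DRE) GCCGAC or ACCGAC on either strand.
LEA4-5, chr5:2090431-2090680, minus strand: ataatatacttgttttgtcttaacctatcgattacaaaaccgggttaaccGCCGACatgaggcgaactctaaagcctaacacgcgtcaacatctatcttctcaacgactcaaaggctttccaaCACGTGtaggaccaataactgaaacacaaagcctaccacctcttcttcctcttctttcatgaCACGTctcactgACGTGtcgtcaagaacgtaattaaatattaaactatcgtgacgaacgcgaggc
RD20, chr2:14146556-14146805, minus strand: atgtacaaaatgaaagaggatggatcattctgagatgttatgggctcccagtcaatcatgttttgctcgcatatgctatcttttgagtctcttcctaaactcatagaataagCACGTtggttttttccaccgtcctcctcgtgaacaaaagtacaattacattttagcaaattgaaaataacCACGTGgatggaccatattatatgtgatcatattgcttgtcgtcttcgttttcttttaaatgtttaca
EXPA16, chr3:20576250-20576499, minus strand: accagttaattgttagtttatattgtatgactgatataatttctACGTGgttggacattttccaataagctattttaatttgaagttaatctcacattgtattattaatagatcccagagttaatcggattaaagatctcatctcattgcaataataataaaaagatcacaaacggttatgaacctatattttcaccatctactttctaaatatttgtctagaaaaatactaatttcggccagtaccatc
RD29A (LTI78), chr5:21240467-21240716, plus strand: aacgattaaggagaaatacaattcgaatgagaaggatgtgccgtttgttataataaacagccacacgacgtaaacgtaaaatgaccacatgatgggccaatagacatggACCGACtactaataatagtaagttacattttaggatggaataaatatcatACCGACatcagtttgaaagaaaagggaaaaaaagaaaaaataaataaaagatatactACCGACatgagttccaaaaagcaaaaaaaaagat
The LEA4-5 window held 4 matches to the ABRE core and 1 DRE, that of RD20 held 3 and 0, and that of EXPA16 held 1 and 0. The RD29A window held no ABRE core but 3 DREs. Only the 250 bases before the annotated start were searched, so that a match past that start or further upstream was not counted. A palindromic CACGTG counts as a match on each strand. A match is a description of letters and no evidence of binding.

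Over all genes, 39.96% of the 448 promoters of raised genes had an ABRE core within 250 bases, against 26.0% of 300 promoters of lowered genes and 23.8% of the 19486 promoters of tested genes. Longer ABREs, ACGTGGC or ACGTGTC, which contain the core, were found in 16.5% of raised, 3.0% of lowered and 7.22% of all promoters. The G-box CACGTG, which also contains the core, was in 15.4% of raised, 5.33% of lowered and 7.28% of all promoters, and the DRE was in 11.2%, 6.33% and 7.92% of the same sets. The evening element AAATATCT, known from clock-controlled promoters, was in 9.38% of raised, 6.33% of lowered and 4.98% of all promoters. The W-box TTGACC or TTGACT, the letters bound by WRKY factors, was in 27.01% of raised, 41.0% of lowered and 28.2% of all promoters, so that it was the motif more frequent before lowered genes. These shares were not tested.

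**Figure D3:**
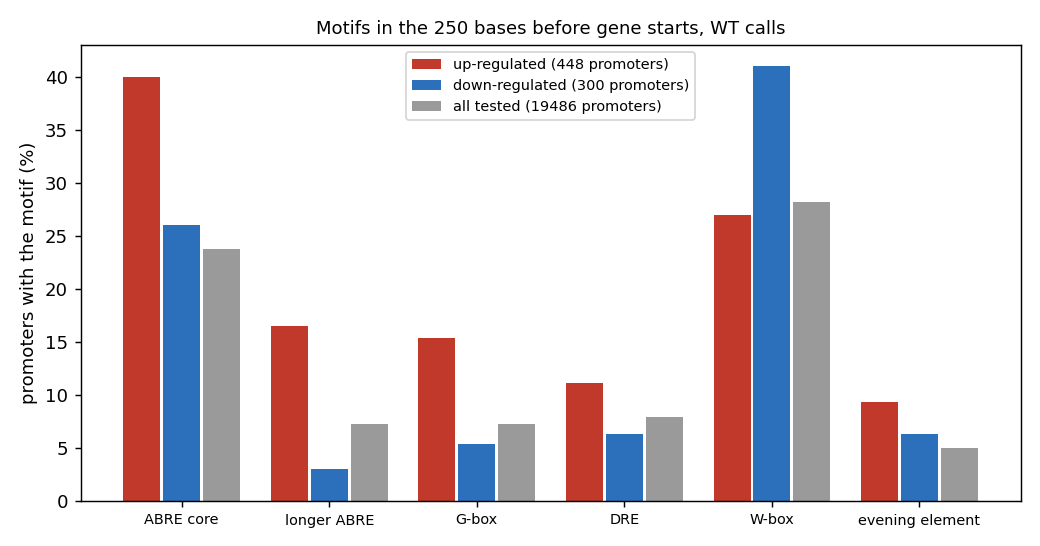
Share of promoters (percent, from 0) with each of 6 motifs in the 250 bases before the gene start, for 448 genes raised by iSB09 in WT, 300 lowered and 19486 tested. The ABRE core reaches 39.96% among raised genes, and the W-box 41.0% among lowered genes.

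Osmolyte and sugar genes changed only in part. Of 21 tested genes of proline, raffinose, starch and trehalose metabolism 4 rose and 1 fell, with a median of 0.20. P5CS1, the rate-limiting enzyme of proline synthesis, had 114, 174 and 143 TPM with iSB09, against 20.9, 22.7 and 20.5 TPM with mock (log2 fold change 2.7 ± 0.15, adjusted p = 0.00026), higher in every treated sample. It overlaps AT2G39795. SWEET15 (listed as SAG29), a sucrose transporter, had 15.8, 10.3 and 25 TPM with iSB09, against 1.66, 1.93 and 1.56 TPM with mock (log2 fold change 2.898). TPPI, a trehalose phosphate phosphatase, had 19.1, 16.1 and 22.3 TPM with iSB09, against 6.65, 4.74 and 5.89 TPM with mock (log2 fold change 1.65). BAM1, the beta-amylase of guard cell starch breakdown, had 53, 70.1 and 65.5 TPM with iSB09, against 28.7, 26 and 26.4 TPM with mock (log2 fold change 1.19). TPPA (listed as ATTPPA) had 16.3, 9.2 and 11.9 TPM with iSB09, against 27.6, 25.9 and 30.7 TPM with mock (log2 fold change -1.17). This call was lost without iSB09 replicate 2 (log2 fold change -0.98, adjusted p = 0.0047) and without mock replicate 3 (log2 fold change -1.11, adjusted p = 0.058).

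A minority of the transcription factors listed for the dehydration response passed. In the HD-Zip, NAC and NF-YA list, 7 of 20 tested genes rose and none fell. RD26, a NAC factor, had 42.5, 47.9 and 39.95 TPM with iSB09, against 6.27, 6.9 and 6.49 TPM with mock (log2 fold change 2.64 ± 0.10, adjusted p = 8.2e-05), and the spread between its treated samples was small. ATHB7 (listed as HB-7) had 86.1, 113 and 111 TPM with iSB09, against 15.7, 18.7 and 16.5 TPM with mock (log2 fold change 2.56). ATHB12 (listed as HB-12) had 24.2, 36.1 and 28 TPM with iSB09, against 5.43, 5.81 and 6.58 TPM with mock (log2 fold change 2.202). Both are homeodomain factors that restrain growth. NAC019 had 24.1, 53.6 and 30.6 TPM with iSB09, against 4.94, 6.91 and 5.21 TPM with mock (log2 fold change 2.497). NAC055 (listed as NAC3) had 4.93, 11.6 and 6.77 TPM with iSB09, against 2.05, 1.79 and 1.36 TPM with mock (log2 fold change 1.82), both highest in treated replicate 2. NAC055 lost its call without mock replicate 3 (log2 fold change 1.69, adjusted p = 0.055). In the MYB, HSF and AP2 list, 4 of 11 tested genes rose, or 3 of the 8 expressed in all mock samples. HSFA6B, a heat shock factor downstream of ABA, had 30.7, 25.9 and 31.9 TPM with iSB09, against 2.06, 2.08 and 2.96 TPM with mock (log2 fold change 3.40 ± 0.16, adjusted p = 0.00014), with treated and mock samples far apart. MYB102, which passed the filter only through the iSB09 samples, had 4.62, 3.14 and 3.54 TPM with iSB09, against 0.0554, 0.0535 and 0.167 TPM with mock (log2 fold change 2.84). MYB74 had 11.2, 9.998 and 12.9 TPM with iSB09, against 2.46, 1.98 and 3.55 TPM with mock (log2 fold change 1.93). DREB2A, which binds the DRE, had 16.2, 19.8 and 15.8 TPM with iSB09, against 6.97, 4.48 and 6.18 TPM with mock (log2 fold change 1.49).

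Genes of the plant surface held 2 of the largest increases. Of 18 tested genes of wax synthesis and lipid transfer 5 rose, with a median of 0.44. LTP3 had 138, 148 and 201 TPM with iSB09, against 3.72, 4.08 and 6.28 TPM with mock (log2 fold change 4.98 ± 0.21, adjusted p = 9.9e-05). Its neighbour LTP4 had 43.9, 38.8 and 76.6 TPM with iSB09, against 5.49, 1.44 and 3.85 TPM with mock (log2 fold change 3.79). Both encode small secreted lipid transfer proteins, and both were highest in treated replicate 3. CER1, which makes the alkanes of the cuticle, had 35.7, 56.7 and 54.6 TPM with iSB09, against 12, 7.15 and 11.7 TPM with mock (log2 fold change 2.204). KCS2, a fatty acid elongase, had 4.94, 5.64 and 5.8 TPM with iSB09, against 1.85, 1.32 and 1.98 TPM with mock (log2 fold change 1.44). CER3 had 57.2, 127 and 68.9 TPM with iSB09, against 43.8, 37.9 and 36.2 TPM with mock (log2 fold change 1.01), and its call was lost without iSB09 replicate 2 or 3 or mock replicate 1 or 2 or 3, each left out alone (log2 fold change 0.67 to 1.11, adjusted p = 0.0099 to 0.16). Of the 21 alternatives 7 kept the CER3 call.

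Most tested genes of the cell wall and growth lists were not called. Over all tested genes 2.28% rose and 1.54% fell. Of 17 tested expansins, proteins that loosen cell walls, 1 rose and 2 fell. The one that rose was EXPA16, with 178, 108 and 161 TPM with iSB09, against 3.46, 7.04 and 6.79 TPM with mock (log2 fold change 4.604 ± 0.28, adjusted p = 0.00038), a treated mean 25.9 times the mock mean. EXPA5 had 17.63, 5.27 and 12 TPM with iSB09, against 28.9, 31.6 and 24.9 TPM with mock (log2 fold change -1.40). EXPA15 had 34.3, 16.6 and 22.9 TPM with iSB09, against 55.5, 43 and 51.8 TPM with mock (log2 fold change -1.06), both lowest in treated replicate 2. EXPA5 lost its call without iSB09 replicate 2 or 3 or mock replicate 1 or 2 or 3, each left out alone (log2 fold change -1.49 to -0.93, adjusted p = 0.01 to 0.14). EXPA15 lost it without iSB09 replicate 2 or 3 or mock replicate 1 or 2 or 3, each left out alone (log2 fold change -1.17 to -0.82, adjusted p = 0.019 to 0.11). Both also lost it with no filter, and EXPA5 with no variance trend. The list median was -0.23. XTH20, a xyloglucan-modifying enzyme, had 8.84, 2.84 and 9.49 TPM with iSB09, against 25.1, 24 and 28.5 TPM with mock (log2 fold change -1.95), lowest in treated replicate 2, and it was the only called gene of 12 in its list. Its call was lost without mock replicate 2 (log2 fold change -2.005, adjusted p = 0.07) and without mock replicate 3 (log2 fold change -1.88, adjusted p = 0.088). Without iSB09 replicate 2 the XTH20 call was kept at a log2 fold change of -1.44. In the auxin and cytokinin list 3 of 13 tested genes fell, and each was a type-A response regulator, a group that cytokinin induces and that dampens its signal. ARR7 had 16.1, 19.4 and 19.3 TPM with iSB09, against 45, 39.6 and 44.8 TPM with mock (log2 fold change -1.22 ± 0.11, adjusted p = 0.0012). ARR6 had 12.6, 9.29 and 11.2 TPM with iSB09, against 26.96, 25.3 and 23.6 TPM with mock (log2 fold change -1.17). ARR3 had 2.61, 1.08 and 2.33 TPM with iSB09, against 5.01, 5.3 and 5.41 TPM with mock (log2 fold change -1.26). The treated samples of all 3 lay below all mock samples. ARR3 lost its call without iSB09 replicate 2 or mock replicate 1 or 2 or 3, each left out alone (log2 fold change -1.28 to -0.95, adjusted p = 0.0053 to 0.09). NRT2.1, the high-affinity nitrate transporter of roots, had 12.8, 4.68 and 15.1 TPM with iSB09, against 38.6, 38.8 and 35.9 TPM with mock (log2 fold change -1.90), the called gene of 5 in the nitrate list. It lost its call without mock replicate 2 (log2 fold change -1.88, adjusted p = 0.074) and without mock replicate 3 (log2 fold change -1.94, adjusted p = 0.078). The NRT2.1 call was kept without iSB09 replicate 2 (log2 fold change -1.41).

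Most tested genes of the lists for other stresses were not called. The shares over all tested genes were 2.28% raised and 1.54% lowered. None of 14 tested jasmonate genes passed by limma or voom, with 4 at an unadjusted p under 0.05 and a median of -0.0045. LOX2, the most abundant, had 375, 1151 and 559 TPM with iSB09, against 273, 356 and 305 TPM with mock (log2 fold change 1.01 ± 0.36, adjusted p = 0.1), was highest in replicate 2 of each group, and was called up with replicate number as a block (adjusted p = 0.037) and without iSB09 replicate 1 (log2 fold change 1.37, adjusted p = 0.026). Without iSB09 replicate 2 the log2 fold change of LOX2 was 0.57 (limma, adjusted p = 0.069). None of 6 heat shock protein genes passed by either tool, with 1 at an unadjusted p under 0.05, and 1 was called down without iSB09 replicate 1. HSP70 had 96, 35.1 and 82.4 TPM with iSB09, against 105, 42.7 and 73.7 TPM with mock, so that the groups overlapped. None of 11 clock genes, 8 photosynthesis genes or 4 genes of the touch and rapid stress response was called by either tool, with 4, 2 and 3 at an unadjusted p under 0.05. Their most abundant members, ELF4, CAB1 and STZ (ZAT10), had log2 fold changes of 0.63, -0.21 and 0.50. Of 8 low-oxygen genes, 1 rose, with a median of -0.87. LBD41 had 35.1, 30.8 and 52.6 TPM with iSB09, against 13.2, 23.7 and 17.7 TPM with mock (log2 fold change 1.097), and its call was lost without iSB09 replicate 3 or mock replicate 1 or 3, each left out alone (log2 fold change 0.87 to 1.097, adjusted p = 0.069 to 0.11), and also with no filter. In the WRKY and defence list, 1 of 11 rose and 1 fell. WRKY70 had 13.4, 38.7 and 19.3 TPM with iSB09, against 5.05, 11.3 and 5.51 TPM with mock (log2 fold change 1.59), highest in replicate 2 of each group. This call was lost without iSB09 replicate 3 or mock replicate 1 or 2 or 3, each left out alone (log2 fold change 1.39 to 1.94, adjusted p = 0.056 to 0.16), and also with median-ratio scaling, quantile normalization, no filter, no variance trend and voom. Of the 21 alternatives 10 kept it, among them the fit without iSB09 replicate 2, at a log2 fold change of 1.18. WRKY18, a factor of defence and ABA signalling, had 13.5, 22.1 and 16.3 TPM with iSB09, against 30.8, 44.1 and 42.7 TPM with mock (log2 fold change -1.17). Its call was lost without iSB09 replicate 3 or mock replicate 2 or 3, each left out alone (log2 fold change -1.14 to -1.08, adjusted p = 0.051 to 0.067). CASP5, a Casparian strip protein and the called gene of 9 root markers, passed the filter only through the iSB09 samples. It had 1.91, 2.55 and 2.72 TPM with iSB09, against 0.692, 0.167 and 0.61 TPM with mock (log2 fold change 1.58 ± 0.27, adjusted p = 0.011).

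The largest increases outside these lists included genes of little known function. AT3G03341, annotated as a cold-regulated protein, had 14.45, 19.2 and 13.6 TPM with iSB09, against 0.822, 0 and 0.138 TPM with mock (log2 fold change 4.42 ± 0.35, adjusted p = 0.00083). It overlaps AT3G03340. TSPO, an ABA-induced membrane protein that is degraded by autophagy, had 9.22, 7.13 and 8.94 TPM with iSB09, against 0.37, 0.143 and 0.0746 TPM with mock (log2 fold change 3.70). AT2G37870, a lipid transfer family protein, had 9.54, 4.27 and 13.1 TPM with iSB09, against 0.24, 0.232 and 0.242 TPM with mock (log2 fold change 3.55). In these 3 genes the mock samples were all below 1 TPM. The noncoding transcript AT3G08435 had 16.8, 6.75 and 14.9 TPM with iSB09, against 0, 0 and 0 TPM with mock, and against a floor of 3 reads per library its level was at least 25.3-fold higher with iSB09. AT3G15450, which carries YGL and LRDR motifs, had 225, 642 and 315 TPM with iSB09, against 42.4, 30.2 and 27.04 TPM with mock (log2 fold change 3.43), highest in replicate 2, and overlaps AT3G15460. AT2G20670 (DUF506) had 132, 234 and 134 TPM with iSB09, against 15.6, 17.61 and 13.4 TPM with mock (log2 fold change 3.34). AT5G39520 (DUF1997) had 6.72, 28.1 and 21.1 TPM with iSB09, against 1.43, 1.16 and 0.909 TPM with mock (log2 fold change 3.32). OXS3, of oxidative stress tolerance, had 15.1, 58.1 and 23.1 TPM with iSB09, against 2.75, 3.88 and 1.82 TPM with mock (log2 fold change 3.12), again highest in replicate 2. AT1G49450, a WD40 repeat protein, rose by 2.903 on the log2 scale. PUB19, a U-box ubiquitin ligase of the drought response, had 6.41, 5.15 and 5.83 TPM with iSB09, against 0.383, 0.247 and 0.643 TPM with mock (log2 fold change 2.79). AT3G03341, TSPO, AT2G37870, AT3G08435, AT5G39520 and PUB19 passed the filter only through the iSB09 samples, so that the filter favoured a difference in them.

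After PYL6, the largest decreases were spread over many functions. GSTF14, a glutathione S-transferase, had 8.1, 1.39 and 7.79 TPM with iSB09, against 60.8, 87.6 and 50.9 TPM with mock (log2 fold change -3.67 ± 0.56, adjusted p = 0.0081), lowest in treated replicate 2. Without that sample the log2 fold change of GSTF14 was -2.95. PP2-A5, a phloem lectin, had 1.84, 2.44 and 1.37 TPM with iSB09, against 17.3, 35.2 and 25.6 TPM with mock (log2 fold change -3.44). AT3G61400, an oxygenase dependent on 2-oxoglutarate, had 0.105, 0.0532 and 0.0533 TPM with iSB09, against 3.52, 8.78 and 4.71 TPM with mock (log2 fold change -3.34). The treated samples of AT3G61400 were near the floor of detection. CRK30, a cysteine-rich receptor-like kinase, had 5.1, 2.88 and 3.59 TPM with iSB09, against 43.2, 34.9 and 43.9 TPM with mock (log2 fold change -3.27 ± 0.19, adjusted p = 0.00034). AT1G05700, a leucine-rich repeat kinase, had 0.712, 1.44 and 0.56 TPM with iSB09, against 10.9, 13.1 and 10.7 TPM with mock (log2 fold change -3.15). AACT1, annotated as an anthocyanin acyltransferase, had 15.1, 3.27 and 5.87 TPM with iSB09, against 82.2, 49.7 and 67.9 TPM with mock (log2 fold change -3.19). ERF73, a transcription factor of the low-oxygen response outside the list used here, had 2.29, 2.71 and 2.91 TPM with iSB09, against 19.8, 24.5 and 19.9 TPM with mock (log2 fold change -2.81 ± 0.14, adjusted p = 0.00016). The bHLH factor AT2G43140 had 0.6, 0.936 and 0.744 TPM with iSB09, against 8.55, 9.86 and 10.4 TPM with mock (log2 fold change -3.01). ERF73 overlaps AT1G72370 and AT2G43140 overlaps AT2G09420. The noncoding transcript AT1G08757 fell, and averaged 1.23 ± 0.113 TPM with iSB09 and 16.5 ± 4.23 TPM with mock (SD, n = 3 each). In AT3G20380, a TRAF-like protein, the log2 fold change was -2.75, and in the receptor-like kinase AT5G37450 it was -2.697. Some short noncoding genes among the largest decreases rest on a handful of reads. AT4G08125 was at 0 in the treated samples and at 5.69, 2.36 and 3.28 TPM in the mock samples, a level at least 1.53-fold lower with iSB09 against a floor of 3 reads per library, and the small nucleolar RNA gene AT1G32385, at 2.73, 2.64 and 4.58 TPM with mock, was at least 1.2-fold lower. AT5G07995 had 0.246, 0 and 0 TPM with iSB09, against 3.68, 3.32 and 2.72 TPM with mock. AT3G61400, AT1G05700, AT2G43140, AT4G08125, AT1G32385 and AT5G07995 passed the filter only through the mock samples, so that the filter favoured a difference in them.

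Replicate 2 of the iSB09 group held more genes far from both other treated replicates than replicate 1 or 3 did. In it, 309 genes were more than 2-fold above both other treated replicates and 268 more than 2-fold below both, against 31 and 66 for replicate 1 and 15 and 15 for replicate 3. The 10 genes furthest above were led by AT4G12500, a lipid transfer family protein, with 3.54, 1468 and 18 TPM with iSB09, against 8.24, 25.7 and 9.27 TPM with mock. Next came AT4G12490 of the same family, with 17.4, 2474 and 129.8 TPM with iSB09, against 25.8, 145 and 21.7 TPM with mock. The chitinase AT2G43620 had 61.7, 1687 and 144 TPM with iSB09, against 44.6, 152 and 43.9 TPM with mock. Each was highest in replicate 2 in the treated and in the mock group. Also among the 10 were the peroxidases AT5G39580, AT5G64120 and AT4G36430, the receptor-like protein RLP23, which senses a peptide of microbes, the berberine bridge family oxidase AT1G26420, and the uncharacterised genes AT3G21351 and AT5G44585. AT5G64120 had 100.4, 2838 and 267 TPM with iSB09, against 129.6, 567 and 197 TPM with mock. None of the 10 was called with all samples, AT3G21351 was called down without iSB09 replicate 2 (log2 fold change -1.65, adjusted p = 0.022), and AT5G44585 down without iSB09 replicate 2 (log2 fold change -1.26, adjusted p = 0.032). FRK1, a kinase induced by bacterial flagellin and named after its values were seen, had 4.28, 75.2 and 14.2 TPM with iSB09, against 4.01, 16.1 and 6.11 TPM with mock. EARLI1, a neighbour of AT4G12490 and likewise named afterwards, had 868, 8761 and 2609 TPM with iSB09, against 1549, 2769 and 1763 TPM with mock. AZI1, the next gene and named in the same way, had 615, 4858 and 1209 TPM with iSB09, against 1378, 2495 and 1386 TPM with mock. The median deviation of replicate 2 from the other treated replicates was 0.92 in the WRKY and defence list, -0.54 in the RD29, KIN, COR and HVA22 list, -0.42 in the LEA list and -0.06 in the PP2C list. In the WRKY and defence list 2 of 11 genes were more than 2-fold above both other treated replicates and 1 below.

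**Figure D4:**
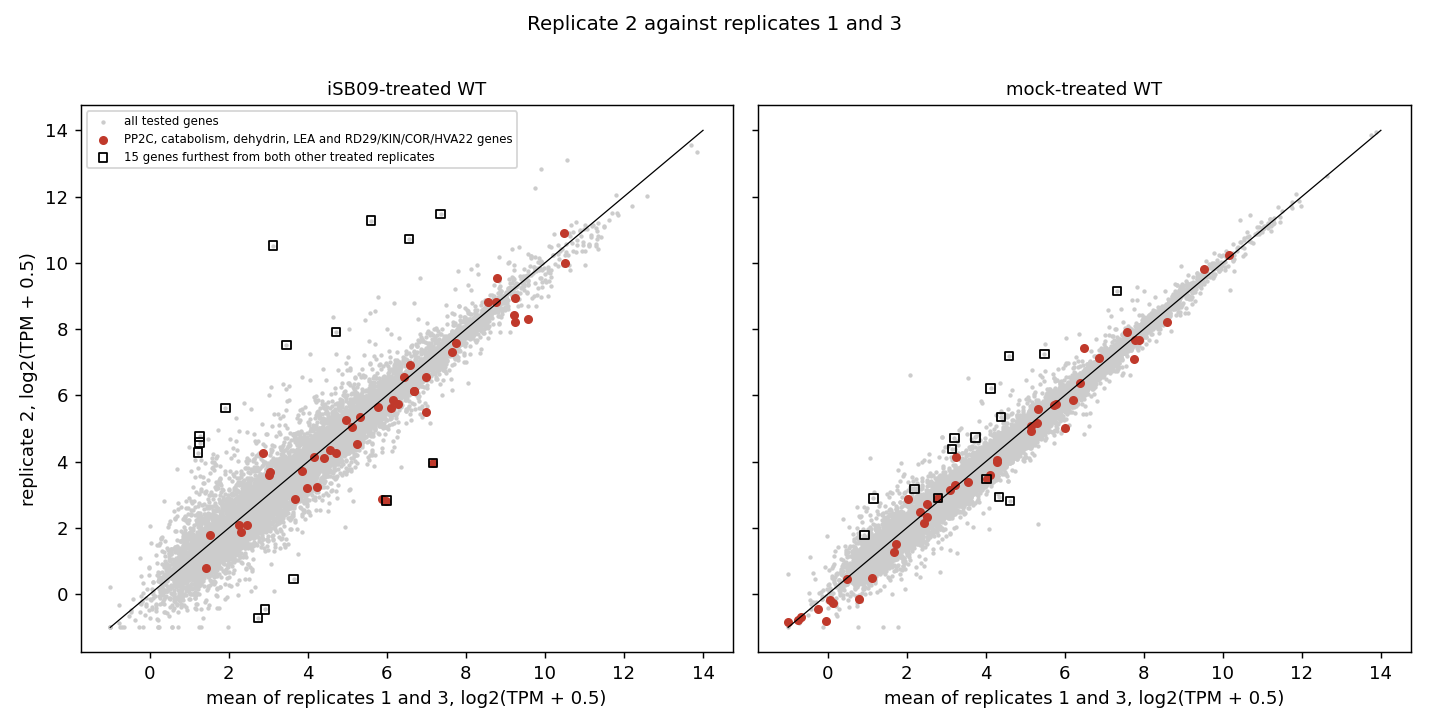
Replicate 2 against the mean of replicates 1 and 3, in log2(TPM + 0.5), for iSB09-treated WT (left) and mock-treated WT (right); grey points are the 19612 tested genes, red points the tested PP2C, catabolism, dehydrin, LEA and RD29/KIN/COR/HVA22 genes, squares the 15 genes furthest from both other treated replicates, and the line marks equal values. The squares far above the line in the treated panel, such as AT4G12500 at 1468 TPM in replicate 2, also lie above it in the mock panel. Most red points lie closer to the line, but COR15A and COR413IM1 are both red and among the squares, far below the line in the treated panel.

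The 5 genes furthest below both other treated replicates were of other kinds. CYP716A2, a cytochrome P450 gene, had 7.02, 0.229 and 7.09 TPM with iSB09, against 22.9, 6.53 and 25 TPM with mock. Its neighbour AT5G36130, of the same family, had 6.83, 0.106 and 5.52 TPM with iSB09, against 18.4, 7.18 and 21.3 TPM with mock. The groups overlapped in CYP716A2 and were barely apart in AT5G36130, and both were called down with replicate number as a block (adjusted p = 0.014 and 0.024). The thionin AT1G66100 had 12.2, 0.869 and 11.7 TPM with iSB09, against 12.7, 26.1 and 13 TPM with mock, and the other 2 were COR413IM1 and COR15A, given above. Of the 309 high genes 22 were called up and 2 down in WT, and of the 268 low genes 22 were called down and 10 up. Mock replicate 2 was the highest mock sample in 74.1% of the 309 genes, against 26.6% of all tested genes, and the lowest in 53.4% of the 268, against 47.8%. In most of the high genes replicate 2 was thus the highest sample in both groups, and what set it apart was not tested.

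The called genes lie on the called side of the mock samples in every treated replicate by their choice, so the next values describe only the size of the change. Over the 448 raised genes the median change from the mock mean was 1.22, 1.604 and 1.40 in iSB09 replicates 1, 2 and 3, and over the 302 lowered genes it was -1.22, -1.59 and -1.31. Replicate 2 was the highest treated sample in 64.5% of the raised genes and the lowest in 64.6% of the lowered genes, against 34.8% and 46.5% of all tested genes. A measure that did not use the WT calls came from the 3220 tested genes that iSB09 changed in CsPYL1-5m plants. Regressed on the log2 fold change in those plants, the change in WT had a slope of 0.358 in replicate 1, 0.369 in replicate 2 and 0.375 in replicate 3, with Pearson correlations of 0.85, 0.68 and 0.84 across these genes. The genes are not independent replicates, and the 3 values share the WT mock samples. Lists differed: over their tested members, with those that passed the filter only through the iSB09 samples, the median change of LEA genes was 3.61, 2.48 and 3.36 in replicates 1, 2 and 3, that of the RD29, KIN, COR and HVA22 genes 2.103, 1.36 and 1.94, and that of the dehydrins 1.41, 1.08 and 1.39, so that replicate 2 was lowest in these 3 lists.

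The same dose changed more genes in plants with the engineered receptor. In CsPYL1-5m seedlings iSB09 raised 1821 and lowered 1659 of 19862 genes tested, 9.17% and 8.35%. The genes raised in WT were largely among them: 364, or 81.3% of the WT genes and 19.99% of the CsPYL1-5m genes, were raised in both genotypes, and 253, or 83.8% of the WT genes and 15.3% of the CsPYL1-5m genes, were lowered in both. Between the genotypes, 1211 of 20081 genes responded higher in CsPYL1-5m plants and 722 lower (6.03% and 3.6%, by limma's interaction term under the same thresholds). With median-ratio scaling, which removes the shift of -0.16 in the median of all differences, 1489 were higher and 466 lower, and without replicate 3 of all groups 880 were higher and 446 lower. Of the 448 genes raised in WT, 215 rose further in CsPYL1-5m plants, 35 responded less, and for 198 no difference was called. Among the 448 were the 78 that passed the filter only through the iSB09 samples. Of the 302 lowered genes 66 fell further, 6 fell less, and 230 were not called different.

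**Figure D5:**
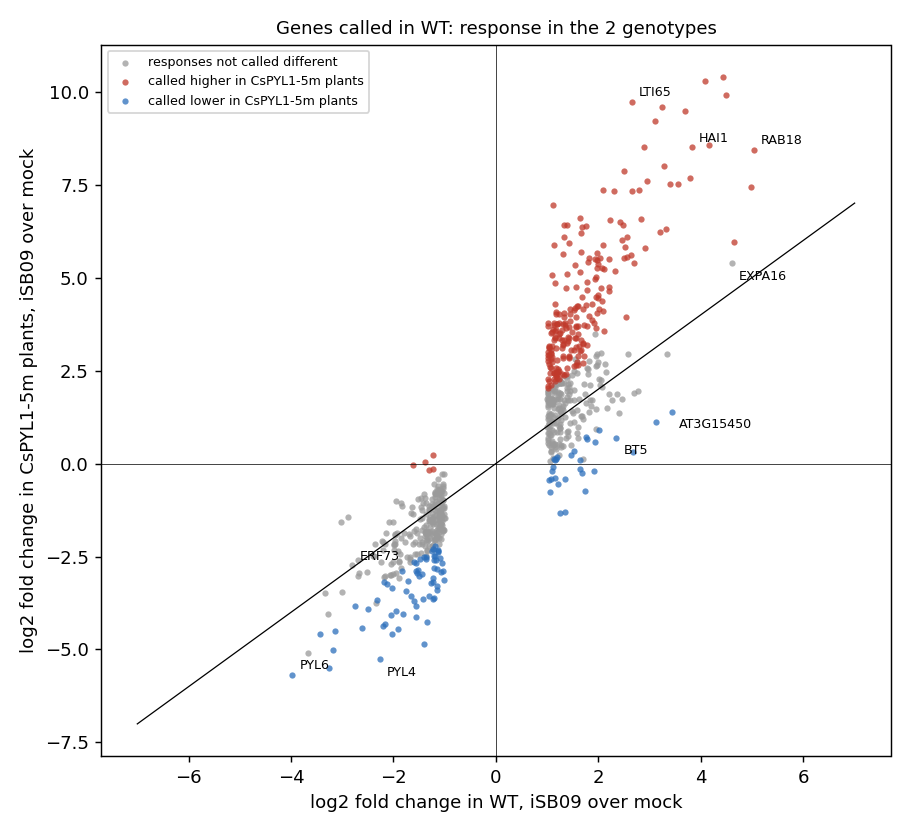
Log2 fold change of iSB09 over mock in CsPYL1-5m plants (vertical) against WT (horizontal) for the 728 genes called in WT and tested in both genotypes, coloured by the test of the difference; the diagonal marks equal responses. Red points rise above the diagonal on the right, where RAB18, HAI1 and LTI65 are marked, and EXPA16 and ERF73 lie near it.

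The filter favours a response in genes tested only through their treated samples. Lists were therefore counted in the test of the difference over genes with at least 1 TPM in all mock replicates of either genotype. Over all such genes 926 of 19530 responded higher in CsPYL1-5m plants and 711 lower. Among them were 5 of 5 PP2C genes, 3 of 4 LEA genes, 10 of 13 genes of the RD29, KIN, COR and HVA22 list and 8 of 11 of the bZIP and AFP list with a higher response, and 4 of 9 receptors with a lower one. RD29B had log2 fold changes of 9.73 in CsPYL1-5m plants, against 2.65 in WT (difference 7.08, 95% interval 6.398 to 7.75), and HAI2 had 7.86 in CsPYL1-5m plants, against 2.51 in WT (difference 5.35, 95% interval 4.89 to 5.80). These are 2 genes that WT raised to a few TPM only. Both were below 1 TPM in every mock sample of both genotypes, so they were tested only through treated samples. PYL4 fell further in CsPYL1-5m plants (difference -2.99, 95% interval -3.36 to -2.63), and PYL8 had a log2 fold change of -1.65 there, against -0.05 in WT (called difference -1.6, 95% interval -1.95 to -1.25). Other genes showed no called difference at this precision. EXPA16 had 5.38 there, against 4.604 in WT (difference 0.78, 95% interval 0.06 to 1.49). AT2G20670 (DUF506) had 2.94 there, against 3.34 in WT (difference -0.40, 95% interval -1.07 to 0.28). ERF73 had -2.74 there, against -2.81 in WT (difference 0.07, 95% interval -0.41 to 0.55). The oxygenase gene AT3G61400 had -3.47 there, against -3.34 in WT (difference -0.13, 95% interval -0.91 to 0.65). Its treated samples averaged only 0.071 TPM (WT) and 0.037 TPM (CsPYL1-5m), far below the 0.5 added to each TPM value. On this scale a further fall could hardly show, so AT3G61400 cannot tell whether the response was larger in CsPYL1-5m plants. The response regulator ARR6 had -1.16 there, against -1.17 in WT (difference 0.01, 95% interval -0.37 to 0.39). The difference was -0.27, 95% interval -0.71 to 0.17, for KAT1. It was 0.05, 95% interval -0.64 to 0.74, for LBD41. A difference that was not called does not show equal responses.

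A small group of the genes raised in WT was called with a lower response in CsPYL1-5m plants. These genes were chosen for their rise in WT, and the difference uses the same WT samples. Among the 35 genes were AT3G15450 and OXS3 and, named after their values were seen, BT2 and BT5, which encode BTB and TAZ domain proteins, the kelch repeat protein AT1G80440, the thioredoxin ACHT5, and NCED4. BT5 had 23.6, 54.7 and 34.4 TPM with iSB09, against 7.9, 5.3 and 6.72 TPM with mock, a log2 fold change of 0.70 in CsPYL1-5m plants, against 2.35 in WT (difference -1.65, 95% interval -2.43 to -0.87). BT2 had 128, 227 and 158 TPM with iSB09, against 51.5, 50.9 and 56.4 TPM with mock, a log2 fold change of -0.16 in CsPYL1-5m plants, against 1.64 in WT (difference -1.80, 95% interval -2.27 to -1.33). AT1G80440 had 55.3, 122 and 71.2 TPM with iSB09, against 12.9, 10.9 and 12 TPM with mock (difference -2.35, 95% interval -3.04 to -1.66). ACHT5 had 24.5, 41.7 and 30.9 TPM with iSB09, against 10.4, 7.93 and 9.07 TPM with mock (difference -2.496, 95% interval -3.17 to -1.82). Treated replicate 2 was the highest treated WT sample in BT5, BT2, AT1G80440 and ACHT5, and in 31 of the 35 genes. Without it, 24 of the 35 were still called up in WT, 23 still responded less in CsPYL1-5m plants, and 25 did so with median-ratio scaling.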

How the data were processed

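Per the methods, the authors removed adapters with cutadapt, kept pairs over 20 nucleotides, aligned them to TAIR10 with HISAT2, discarded nonunique pairs with SAMtools, counted with HTSeq-count on Araport11 and used DESeq2 for their own tests. The authors deposited TPM values and, for the same genes, RPKM values, and every sample column was used. Reads were recovered from RPKM and TAIR10.1 exon lengths, with 72.7% of the detected genes in the annotation whole in every sample (tolerance 0.05) and 7497 further lengths fitted.

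The scale was log2(TPM + 0.5) and the test limma 3.58.1, with a variance trend, in R 4.3.3. The 6 samples of a genotype entered its fit, and all 12 the difference between responses. Benjamini-Hochberg adjustment ran over all genes tested. Steps were tested on simulated data. Python 3.11.15 with numpy 2.4.6 and pandas 2.3.3 gave the summaries, and matplotlib 3.10.9 the figures. Replicates were independent experiments per the methods, and deviations of same-numbered WT samples correlated by 0.16, 0.30 and 0.21, each above 0.1, so the numbers were taken to pair the samples, although iSB09 replicate 1 correlated slightly more with mock replicate 3 (0.18; the 5 other cross pairs -0.28 to 0.03). The main fits were unpaired, and the pairing entered only through the replicate block, an alternative. Replicate pairs differed by 8.90 to 57.8 times sampling noise (chi-square per gene). Read floors cover counting error only.

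The genes, lists and rules were chosen with earlier results of these data known. Named were the 14 largest increases and 10 largest decreases (not overlapping, mean at least 5 TPM), up to 5 called members per list or its most abundant one, all tested members of 4 lists, the 10 and 5 genes furthest above and below in treated replicate 2, and the 5 largest changes each way outside the lists. The alternatives were other pseudocounts, filters, scalings, the RPKM table, no trend, a replicate block, all 12 samples and leaving out samples. Limma voom on recovered reads and the response difference without iSB09 replicate 2 were added after seeing the data. Of 37336 identifiers 37051 matched the annotation, and the 285 others were organelle genes.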

Additional observations from a re-analysis of the deposited data

Results flagged for a closer look

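Of the 24 genes with the largest changes in WT, 18 responded differently in CsPYL1-5m plants and WT by the limma interaction term. Values are log2 differences, CsPYL1-5m response minus WT response, and no explanation was tested.

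Of the 14 genes with the largest increases, 12 rose further in CsPYL1-5m plants. Of these 12, RAB18, LEA4-5, AT3G02480, HAI1, AT2G37870, AT3G03341, TSPO and AT3G08435 did not reach 1 TPM in all mock replicates of either genotype. They were tested only through their treated samples, so that the filter favoured a response in them. The difference was 3.41 for RAB18, 5.43 for LEA4-5, 6.19 for the LEA gene AT3G02480 and 4.40 for RD20. It was 4.68 for the phosphatase HAI1 and 4.13 for the factor HSFA6B. The lipid transfer genes LTP3, LTP4 and AT2G37870 had 2.46, 3.89 and 3.96. AT3G03341 had 5.97, TSPO 5.78 and the noncoding AT3G08435 1.32. AT3G15450 rose less in CsPYL1-5m plants, at -2.04, and no difference was called for EXPA16. Over all 448 raised genes, with the 78 that passed the filter only through the iSB09 samples, 215 rose further.

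Of the 10 genes with the largest decreases, 5 fell further in CsPYL1-5m plants and 5 were not called different. Over all 302 lowered genes 66 fell further. For the 5 genes, the difference was -1.71 for the receptor PYL6, -1.15 for PP2-A5, -2.22 for CRK30, -1.81 for AACT1 and -1.35 for AT1G05700.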

How the results depend on the processing

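No called named gene reversed its direction under any of the 21 alternatives. Of 100 named genes called with all samples, 80 kept the call when each sample was left out in turn, 100 kept it with a replicate block, 96 with limma voom on recovered reads and 9 with replicate 3 of both groups left out. The counts of genes raised and lowered stayed within 1.5 times under other pseudocounts, filters, scalings, the RPKM table and voom, which gave 436 and 372. Leaving out samples gave 8 to 570 raised and 4 to 375 lowered genes, with the lowest when replicate 3 of both groups was left out. For the response difference, leaving out a replicate gave 880 to 1295 genes higher and 446 to 790 lower in CsPYL1-5m plants, and median-ratio scaling gave 466 lower. The replicate block, which pairs same-numbered samples, gave 481 raised and 326 lowered genes in WT and 1211 higher and 738 lower responses. Beside the genes given with it in the report, the block changed the calls of LTP2, JAZ7 and HB1 among list members, chosen after their values were seen. At 3 samples a group an exact permutation test allows no p below 0.1. Genes near 3 reads per library are not resolved at this depth.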

Other observations

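Gene families were picked by words of the RefSeq product names after the values were seen. Over all 19612 genes tested in WT, 2.28% rose and 1.54% fell. In treated replicate 2, 309 of them were more than 2-fold above both others and 268 below. Among families not described further, 8 of 194 RING/U-box genes rose and 2 fell, and 2 of 51 WRKY genes rose and 1 fell. Of 76 tested genes for proteins with a cysteine/histidine-rich C1 domain, a family of largely unknown function, 13 fell and none rose, with a median log2 fold change of -0.40. Of 121 leucine-rich repeat kinases 9 fell and none rose, and of 26 cysteine-rich receptor-like kinases 4 fell (CRK30, CRK29, CRK28 and CRK12) and none rose, while 7 of the 26 were more than 2-fold above both others in treated replicate 2. Of 36 nodulin MtN21-like genes, which include the UMAMIT amino acid exporters, 5 rose and none fell, and of 10 senescence regulator genes 4 rose. Cytochrome P450 genes went both ways, with 17 raised and 8 lowered of 134. Of 48 SAUR-like genes, small auxin-induced genes of elongating tissue, 4 fell and 11 were more than 2-fold below both others in treated replicate 2.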
